A study of Mus musculus with 36 samples.

Results

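The 6 genes followed here belong to the IgG Fc receptor family or its relatives: the activating receptors Fcgr1, Fcgr3 and Fcgr4, the inhibitory receptor Fcgr2b, the receptor-like gene Fcrls and the transport receptor Fcgrt. They were chosen by symbol, with earlier results of these data known, and are 6 of the 30205 genes in the deposited tables. Each gene's estimated counts and TPM (a library's transcripts scaled to one fixed total, a level per transcript length) were summed over its Ensembl transcripts. Levels of 1 gene across libraries are given as CPM (counts scaled to one fixed library total, with TMM factors), and levels of different genes are compared as TPM.

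The RNA came from 36 mouse cultures in 6 groups of 6, from wild-type (WT) controls or Mir324-null mice, all 20 weeks old. Marrow cells were first grown with M-CSF, the macrophage growth factor. The bone marrow macrophages (BMM) then had M-CSF at 30 ng/mL for 5 days. The osteoclast cultures (OC) had the same M-CSF dose for 5 days together with RANK-L, the cytokine that drives osteoclast formation, at 50 ng/mL. The osteoblast cultures (OB) were outgrowths of bone chips, kept for 18 days in medium with β-glycerophosphate and ascorbic acid. The series asks whether the microRNA miR-324 affects both osteoblasts and osteoclasts, and here the question is what its loss goes with for the RNA of Fc receptors. The level of Mir324 was not analysed here. The labels name neither the null allele's construction nor the mouse behind each library, so p-values measure only the spread between these libraries, which may be technical.

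Fc gamma receptors bind the constant part of IgG antibodies and let macrophages take up and respond to antibody-coated material. The activating receptors signal through the ITAM motif of a shared partner, the Fc receptor gamma chain encoded by Fcer1g, which recruits the kinase Syk. Fcgr2b has an ITIM motif in its own tail, which recruits the lipid phosphatase encoded by Inpp5d and dampens that signal, so the balance of both kinds sets the response to immune complexes. Fcgrt encodes the heavy chain of the neonatal Fc receptor, which pairs with beta-2 microglobulin (B2m) and returns IgG and albumin from endosomes to the surface. ITAM partners such as the gamma chain are also known to assist RANK in osteoclast formation.

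Between 13984897 and 26100475 counts per library fell in annotated genes, and no pair of replicates was close enough to be 1 library deposited under 2 names (lowest chi-square 3.34 per gene, where sampling alone gives about 1). In 5 groups the markers of the labelled cell type were high, though the osteoblast cultures also held macrophage and osteoclast marker RNA. In the libraries labelled null osteoclasts the 16 osteoclast markers summed to 1254 to 1671 CPM, above the 1023 to 1159 CPM of null BMM in every library, near the 1180 to 1331 CPM of WT BMM and far from the 32213 to 34671 CPM of WT OC. With RANK-L 9 of the 16 rose in null cells and none fell, where 12.9% of all genes tested passed. The median log2 fold change of the 16 was 0.45. Ctsk (cathepsin K) rose by 4.34 ± 0.37 on the log2 scale (edgeR adjusted p = 1.06e-06). Atp6v0d2 did not pass (-0.0026 ± 0.09, edgeR adjusted p = 0.991), and the calcitonin receptor Calcr was at 0. These libraries are therefore called null RANK-L cultures. The 14 macrophage markers summed to 52868 to 66081 CPM in those cultures and to 13222 to 15621 CPM in WT OC. In WT OB they summed to 15793 to 19589 CPM, so the osteoblast cultures held macrophage RNA. The 16 osteoclast markers summed to 4563 to 5765 CPM in WT OB and to 5475 to 8363 CPM in null OB, above both BMM groups. Against WT BMM 12 of these 16 were higher in WT OB and 4 were lower, where 76.8% of genes tested passed. Calls were made at an adjusted p under 0.05 (edgeR, quasi-likelihood F test, Benjamini-Hochberg). Between the genotypes 52.3% of genes tested passed in the BMM, 65.6% in the RANK-L cultures and 32.5% in the OB. Of those calls 51.5% were higher in null in BMM, 49.4% in OC and 47.9% in OB, but on log2(TPM + 1) the shares were 33.1, 32.2 and 81.0%, with the median of all genes at -0.12, -0.20 and 0.14.

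Fcgr2b, Fcgr4 and Fcgr3 are neighbours on chromosome 1 (GRCm38), at chr1:170958617-170976547 on the minus strand, chr1:171018920-171029761 on the plus strand and chr1:171051174-171064935 on the minus strand. Fcer1g lies further along at chr1:171229572-171234365. Fcrls is at chr3:87250758-87263738 and Fcgr1 at chr3:96282909-96293969, both on the minus strand, and Fcgrt is at chr7:45092990-45103851 on the minus strand. Fcgr2b and Fcgr3 code for extracellular parts of very similar sequence, which is shown because it limits how well reads can be assigned. The exons numbered 4, which code for an immunoglobulin-like domain, are the same at 250 of 255 bases (98.0%), and those numbered 3 at 241 of 255 (94.5%). Capitals mark the bases that differ between the pair, exons read 5′ to 3′ on the minus strand at chr1:170966446-170966700 and chr1:171053939-171054193.
Fcgr2b exon 4: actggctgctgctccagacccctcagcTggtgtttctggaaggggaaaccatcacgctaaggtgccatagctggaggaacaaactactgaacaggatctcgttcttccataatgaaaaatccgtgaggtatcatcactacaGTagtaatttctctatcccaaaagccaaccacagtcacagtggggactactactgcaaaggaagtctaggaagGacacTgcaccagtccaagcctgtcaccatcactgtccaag
Fcgr3 exon 4: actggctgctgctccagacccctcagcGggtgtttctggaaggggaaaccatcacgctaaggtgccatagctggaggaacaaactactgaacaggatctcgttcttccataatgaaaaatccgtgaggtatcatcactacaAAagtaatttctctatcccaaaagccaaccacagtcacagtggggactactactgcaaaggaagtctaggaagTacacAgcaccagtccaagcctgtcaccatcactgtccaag
Of the stretches of 31 bases in all their transcripts, 13.4% of those of Fcgr3 and 5.88% of those of Fcgr2b also occur in another gene. Within the most abundant transcript of each the shares are closer, 17.7% for Fcgr3-201 and 16.3% for Fcgr2b-202. The levels of both genes are therefore somewhat uncertain where 1 is far above the other. Fcgr1, Fcrls and Fcgrt share none. Fcgr2b overlaps the antisense gene Gm38204 and Fcgr4 the small nuclear RNA gene Gm26110, and the strand used in counting is not given in the sources used here.

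In WT BMM the low-affinity activating receptor Fcgr3 was the most abundant of the 6 per length, at 3123 ± 411 TPM (SD, n = 6), which was 68.9% of their summed TPM. Fcgr2b followed at 757 ± 76.3 TPM, then Fcrls at 429 ± 44.8 and Fcgrt at 169 ± 23.99. The high-affinity receptor Fcgr1 had 34.4 ± 5.37 TPM and Fcgr4 had 18.8 ± 5.25. No 2 neighbours in this order overlapped in their libraries. Fcgr3 led in all 6 groups, with 73.2% of the summed TPM in null BMM, 73.3% in WT OC, 75.2% in null RANK-L cultures, 38.8% in WT OB and 34.8% in null OB. In null OB its libraries overlapped those of Fcrls, at 505 ± 77.7 against 397 ± 79.2 TPM. The lower places changed: in null BMM Fcrls (182 ± 24.98 TPM) stood above Fcgr2b (109 ± 4.94 TPM).

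**Figure D1:**
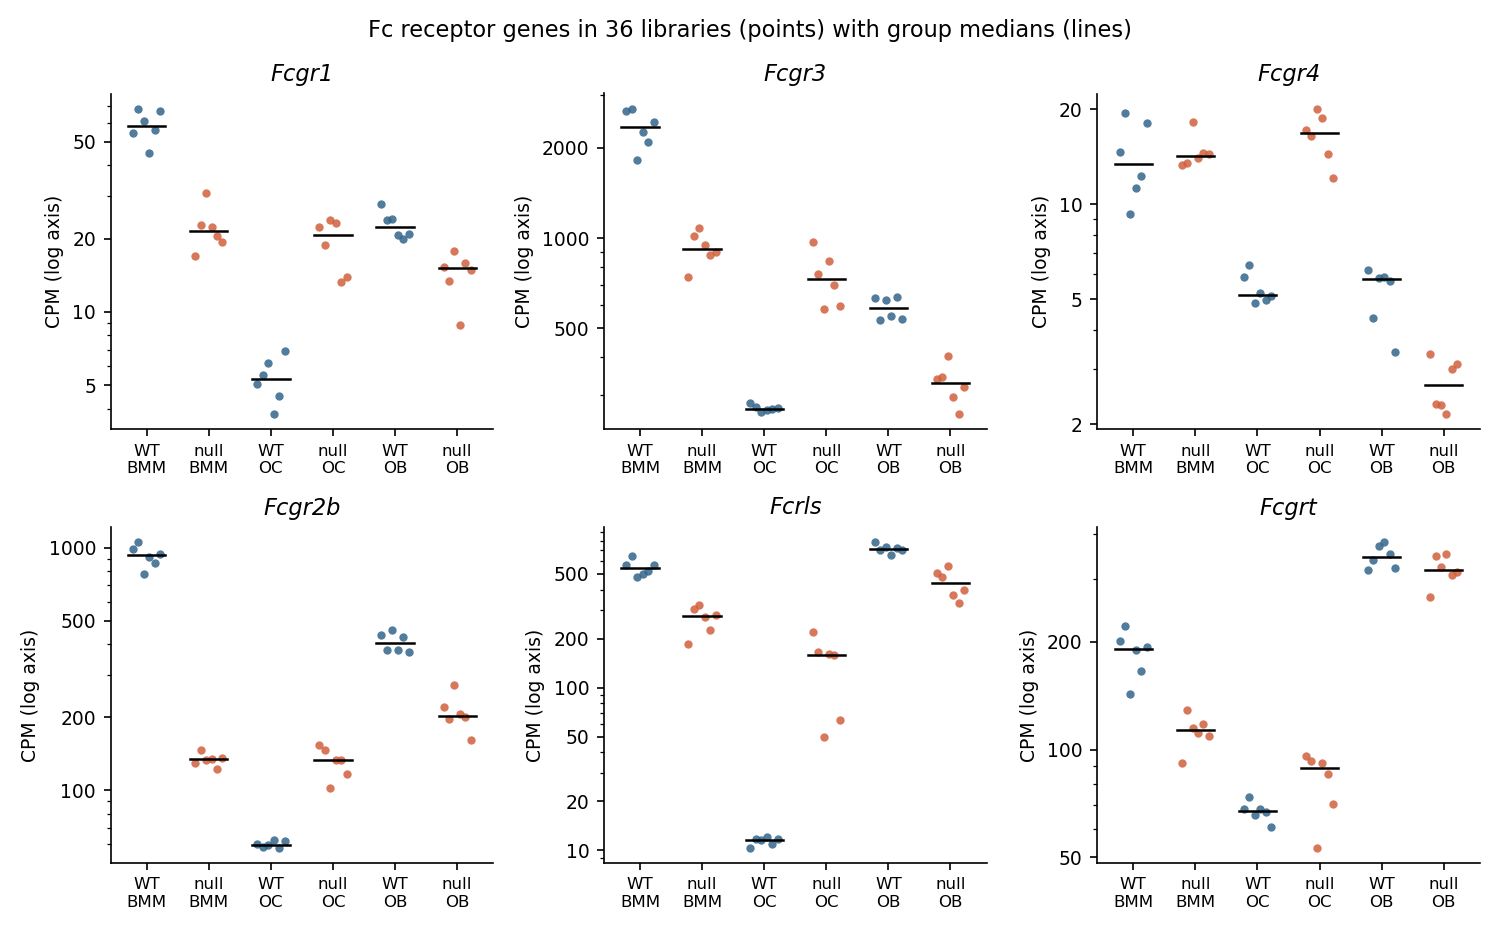
Level of each of the 6 genes in each of 36 libraries, as TMM-scaled CPM on log axes that differ between panels (blue, WT; orange, null; line, group median of 6). Fcgr2b is highest in WT BMM, between 777 and 1055 CPM, and lowest in WT OC, between 58.1 and 62.1 CPM; Fcrls in null OC has 4 libraries between 158 and 220 CPM and 2 at 50.0 and 63.5 CPM.

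Null BMM had less Fcgr2b, Fcgr1, Fcgr3, Fcrls and Fcgrt RNA than WT BMM, and Fcgr4 differed by less than the spread between libraries. Of the 6 genes 5 fell, where 25.4% of all genes tested fell, and the median log2 fold change of the 6 was -1.17 against 0.02 over all genes. The 5 did not overlap between the groups, a pattern seen for 30.8% of genes. In bulk RNA, fewer cells of a type and less RNA per cell cannot be told apart.

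Fcgr2b, the inhibitory receptor, fell the furthest. Its level ran from 777 to 1055 CPM in WT BMM (median 931) and from 123 to 147 CPM in null BMM (median 134). Every null library was thus far below every WT library. The log2 fold change was -2.77 ± 0.08 (SE), a 6.84-fold lower level (edgeR adjusted p = 1.91e-13, n = 6 and 6). B cells also express Fcgr2b, and the 10 B-cell markers summed to 134 to 230 CPM in WT BMM, against 57.4 to 70.7 CPM in null BMM. Of the 4 that could be tested 1 fell, 1 rose and 2 did not pass. Ighm fell, from 183 ± 37.0 to 52.9 ± 5.40 CPM. Cd79b rose, from 0 to 2 counts per WT library to 14 to 55 per null library. The B-cell gene Pax5 was at 0 in all 12 libraries. The part of B cells in the fall of Fcgr2b was not tested.

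Among the activating receptors, Fcgr3 ran from 1819 to 2702 CPM in WT BMM (median 2351) and from 744 to 1085 CPM in null BMM (median 923). It fell by 1.31 ± 0.11 on the log2 scale (edgeR adjusted p = 5.05e-08). Fcgr1 ran from 45.0 to 68.4 CPM in WT BMM (median 58.3) and from 17.0 to 30.8 CPM in null BMM (median 21.4). Both genes were thus lower in all 6 null libraries, by about the same factor. For Fcgr1 the log2 fold change was -1.39 ± 0.13 (edgeR adjusted p = 4.17e-07). Fcgr4, which binds IgG2a and IgG2b, ran from 9.28 to 19.5 CPM in WT BMM (median 13.4) and from 13.3 to 18.2 CPM in null BMM (median 14.2). The WT range of Fcgr4 covered the null range, and the test did not pass, at 0.06 ± 0.16 (edgeR adjusted p = 0.769). Its estimate took either sign across other settings, from -0.06 to 0.17.

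Fcrls, a relative known as a marker of microglia, ran from 479 to 640 CPM in WT BMM (median 546) and from 186 to 323 CPM in null BMM (median 275). It fell by 1.03 ± 0.12 on the log2 scale (edgeR adjusted p = 3.10e-06). Fcgrt ran from 143 to 222 CPM in WT BMM (median 191) and from 91.6 to 129 CPM in null BMM (median 113). This was the smallest of the 5 falls, 0.71 ± 0.10 lower on the log2 scale (edgeR adjusted p = 2.82e-05). The macrophage markers did not move as 1 block with these falls: 4 of 14 rose and 9 fell, with a median log2 fold change of -0.50, and their sum was 48469 to 59712 CPM in WT BMM against 57554 to 65321 CPM in null BMM. Their part in the result was not tested.

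All 6 genes were lower with RANK-L in WT cells. In WT OC against WT BMM 6 of 6 fell, where 60.5% of genes tested passed and 30.1% fell, and no gene overlapped between the groups (50.4% of genes did not). The median log2 fold change of the 6 was -3.23, against -0.0030 over all genes tested. Fcrls ran from 10.4 to 12.1 CPM in WT OC (median 11.6), against 479 to 640 CPM in WT BMM. It fell by 5.54 ± 0.29 on the log2 scale, a 46.4-fold lower level (edgeR adjusted p = 7.29e-14). Fcgr2b ran from 58.1 to 62.1 CPM in WT OC (median 59.6) and fell by 3.90 ± 0.09, 14.9-fold lower (edgeR adjusted p = 1.68e-23). These were the 2 largest falls of the 6. All 14 macrophage markers fell with them (median log2 fold change -1.97) and all 16 osteoclast markers rose (median 7.83), and their part in the result was not tested.

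The activating receptors also fell with RANK-L in WT cells. Fcgr1 ran from 3.80 to 6.94 CPM in WT OC (median 5.28) and fell by 3.40 ± 0.17 on the log2 scale (edgeR adjusted p = 7.33e-16). Fcgr3 ran from 264 to 282 CPM in WT OC (median 270.1) and fell by 3.06 ± 0.11 (edgeR adjusted p = 1.57e-18). The falls of Fcgr4 and Fcgrt were smaller. Fcgr4 ran from 4.85 to 6.40 CPM in WT OC (median 5.16) and fell by 1.34 ± 0.15 (edgeR adjusted p = 1.66e-08). Fcgrt ran from 60.7 to 73.6 CPM in WT OC (median 67.5) and fell by 1.42 ± 0.11 (edgeR adjusted p = 1.54e-11).

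In null cells the same 5 days with RANK-L gave smaller differences from BMM. Of the 6 genes 3 fell, where 12.9% of genes tested passed and 6.07% fell. All 6 overlapped between null RANK-L cultures and null BMM, where 2.31% of genes did not. Fcgr2b had a median of 133 CPM in null RANK-L cultures against 134 CPM in null BMM, a log2 difference of -0.04 ± 0.08 (edgeR adjusted p = 0.771). Fcrls fell by 0.97 ± 0.24 (edgeR adjusted p = 0.0122) and Fcgrt by 0.47 ± 0.11 (edgeR adjusted p = 0.00917). Fcgr3 fell by 0.34 ± 0.11 (edgeR adjusted p = 0.0385), a call that was lost under 5 other settings and without any 1 of 7 libraries, with adjusted p up to 0.116. Fcgr1, at -0.20 ± 0.16 (edgeR adjusted p = 0.400), and Fcgr4, at 0.17 ± 0.15 (edgeR adjusted p = 0.476), did not pass.

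The difference between the 2 genotypes' responses to RANK-L was tested as an interaction, and all 6 genes passed, each with a less negative response in null cells, where 51.4% of genes tested passed and 25.3% did so in that direction. The interaction was 4.57 ± 0.36 for Fcrls, 3.86 ± 0.11 for Fcgr2b, 3.20 ± 0.23 for Fcgr1 and 2.72 ± 0.15 for Fcgr3 on the log2 scale. It was 1.51 ± 0.21 for Fcgr4 and 0.95 ± 0.16 for Fcgrt, and the largest edgeR adjusted p of the 6 was 1.37e-05. Of the 14 macrophage markers 13 also passed with a less negative response in null cells (median difference 1.93), and 15 of the 16 osteoclast markers passed the other way (median -5.72). The part of these markers was not tested. The plot of fold changes shows both responses side by side.

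**Figure D2:**
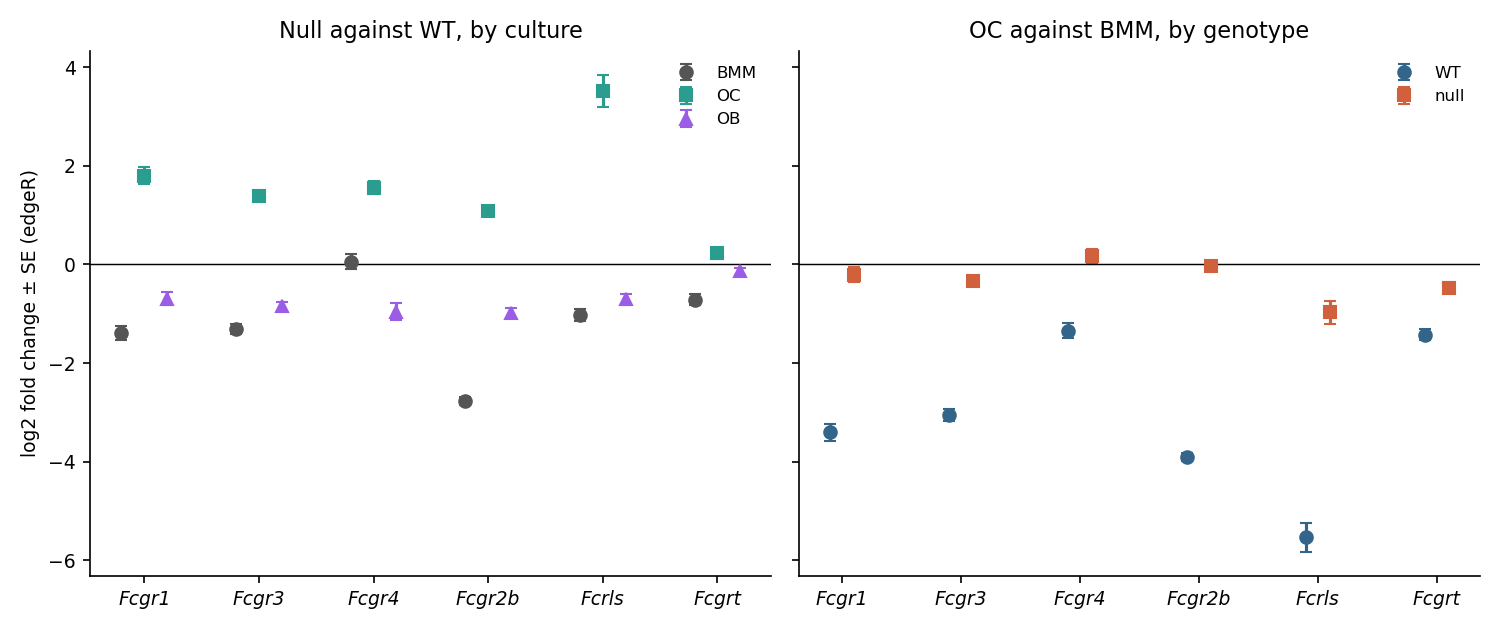
Log2 fold change with its standard error (edgeR, 6 libraries per group) for each gene. Left, null against WT in BMM, OC and OB: 5 genes are below 0 in BMM, all are above 0 in OC and all are below 0 in OB. Right, OC against BMM: WT values lie between -5.54 and -1.34 and null values between -0.97 and 0.17.

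Within the RANK-L cultures 4 genes, Fcgr2b, Fcgr1, Fcgr3 and Fcrls, passed in the direction opposite to that in BMM. Of the 6 genes 5 rose in null against WT, where 32.4% of genes tested rose, and these 5 did not overlap (45.4% of genes did not). The median log2 fold change of the 6 was 1.48, against -0.03 over all genes tested. This comparison shares the null and WT RANK-L libraries with the tests of RANK-L above, so it restates them by genotype.

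Fcrls ran from 50.0 to 220 CPM in null RANK-L cultures (median 159). It was 3.52 ± 0.33 higher than in WT OC on the log2 scale, 11.5-fold (edgeR adjusted p = 5.26e-07). The null libraries were far apart for this gene, with replicates 3 and 6 at 50.0 and 63.5 CPM and the other 4 at 158 CPM or more, yet all 6 were above every WT library. Leaving out any 1 library kept the rise between 3.35 and 3.69. Fcgr1 ran from 13.3 to 23.9 CPM in null RANK-L cultures (median 20.6) and was 1.80 ± 0.18 higher (edgeR adjusted p = 1.32e-07). Fcgr4 ran from 12.1 to 20.1 CPM (median 16.9) and was 1.56 ± 0.13 higher (edgeR adjusted p = 2.35e-08). So Fcgr4, which did not separate the genotypes in BMM, separated them fully here.

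Fcgr3 ran from 580 to 972 CPM in null RANK-L cultures (median 730) and rose by 1.40 ± 0.10 on the log2 scale (edgeR adjusted p = 1.68e-09). Fcgr2b ran from 102 to 154 CPM (median 133) and rose by 1.08 ± 0.08, 2.11-fold (edgeR adjusted p = 3.05e-09), the smallest of the 5 rises. Fcgrt did not pass: it ran from 53.2 to 95.8 CPM (median 88.6) against 60.7 to 73.6 CPM in WT OC, a log2 difference of 0.23 ± 0.11 (edgeR adjusted p = 0.0817). Null replicate 3 lay below all WT libraries for Fcgrt, and without it the difference was 0.32 (edgeR adjusted p = 0.00167), without replicate 6 it was 0.26 (edgeR adjusted p = 0.0486), with limma-voom it was 0.31 (adjusted p = 0.00466), and on log2(TPM + 1) it was -0.0026. Macrophage markers moved with these rises: 12 of 14 rose and 1 fell, median log2 fold change 1.61, with the sums given above. The 10 B-cell markers summed to 33.5 to 72.7 CPM in null and 20.1 to 27.9 CPM in WT cultures, with Pax5 at 0. The part of either in the rises was not tested.

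In the osteoblast cultures the receptors were also present, and all but Fcgrt were lower in null. Of the 6 genes 5 fell, where 16.9% of genes tested fell, and the 5 did not overlap (15.8% of genes did not). The median log2 fold change of the 6 was -0.78, against 0.0018 over all genes tested. Fcgr2b ran from 373 to 460 CPM in WT OB (median 404) and from 161 to 272 CPM in null OB (median 203). It fell by 0.98 ± 0.10 on the log2 scale, 1.97-fold lower (edgeR adjusted p = 1.45e-05). Fcgr4 ran from 3.39 to 6.17 CPM in WT OB (median 5.77) and from 2.16 to 3.34 CPM in null OB (median 2.66), with 40 to 134 counts per library. It fell by 0.95 ± 0.17 (edgeR adjusted p = 0.000752). The lowest WT library of Fcgr4 and the highest null library were almost level.

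Fcgr3 ran from 532 to 636 CPM in WT OB (median 585) and from 259 to 404 CPM in null OB (median 329). It fell by 0.85 ± 0.09 on the log2 scale (edgeR adjusted p = 1.59e-05). Fcgr1 ran from 19.9 to 27.8 CPM in WT OB (median 22.4) and from 8.85 to 17.7 CPM in null OB (median 15.1), and fell by 0.69 ± 0.13 (edgeR adjusted p = 0.00129). All 6 null libraries were below all WT libraries for both. Fcrls ran from 653 to 782 CPM in WT OB (median 708) and from 333 to 559 CPM in null OB (median 439), and fell by 0.70 ± 0.11 (edgeR adjusted p = 0.000266). Fcgrt overlapped, at 318 to 380 CPM in WT OB (median 346) and 267 to 353 CPM in null OB (median 318). Its log2 difference was -0.14 ± 0.07 (edgeR adjusted p = 0.159).

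Markers of several cell types also differed between the genotypes in OB, and most macrophage markers went in the direction of the falls. Of 14 macrophage markers 10 fell and none rose, with a median log2 fold change of -0.54, and the sums were 15793 to 19589 CPM in WT OB and 8693 to 12169 CPM in null OB. The M-CSF receptor gene Csf1r was the only 1 of the 14 with a positive estimate. It was at 633 ± 52.3 CPM in WT OB and 662 ± 18.0 CPM in null OB (log2 difference 0.05 ± 0.06, edgeR adjusted p = 0.520). C1qa fell by 0.86 ± 0.08 (edgeR adjusted p = 6.20e-06) and Cd68 by 0.55 ± 0.06 (edgeR adjusted p = 1.07e-05). Lyz2, which encodes lysozyme, fell by 0.82 ± 0.12 (edgeR adjusted p = 0.000224). The 10 B-cell markers summed to 67.1 to 93.6 CPM in WT OB, below the 108 to 123 CPM of null OB. Of the 3 that could be tested Ebf1, which cells other than B cells also express, rose by 0.85 ± 0.09 (edgeR adjusted p = 1.72e-05), Cd22 fell by 0.64 ± 0.10 (edgeR adjusted p = 0.000242) and Ighm did not pass. The 15 osteoblast markers summed to 72849 to 95956 CPM in WT OB and 111806 to 132878 CPM in null OB, where 7 rose and 1 fell. Of the 16 osteoclast markers 7 rose and none fell. Over all genes tested 32.5% passed in OB, and 47.9% of those calls were higher in null. The part of these cell types in the falls was not tested.

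Against BMM, WT OB had more Fcgrt and less of 4 others. Fcgrt rose by 0.90 ± 0.10 on the log2 scale (edgeR adjusted p = 8.37e-10; 76.8% of genes tested passed and 41.5% rose). Fcgr3 fell by 2.00 ± 0.11 and Fcgr4 by 1.45 ± 0.16, Fcgr1 by 1.36 ± 0.16 and Fcgr2b by 1.18 ± 0.09, with an edgeR adjusted p of at most 6.33e-10 (35.3% of genes tested fell). None of the 6 genes overlapped between these groups (64.2% of genes did not). Fcrls was higher in every WT OB library, but the test did not pass, at 0.38 ± 0.20 (edgeR adjusted p = 0.0949). It passed with RLE scaling, in DESeq2 and in limma-voom, with adjusted p between 0.00772 and 0.0489. WT OB and null OB were the groups with the most Fcgrt, and they overlapped each other.

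Against WT OC, WT OB had more of 5 genes (77.9% of genes tested passed and 41.3% rose), and these 5 did not overlap (67.3% of genes did not). Fcrls was 5.91 ± 0.26 higher on the log2 scale, 60.1-fold (edgeR adjusted p = 2.27e-20), Fcgr2b 2.71 ± 0.10, Fcgrt 2.31 ± 0.11, Fcgr1 2.04 ± 0.17 and Fcgr3 1.05 ± 0.11. Fcgr4 did not pass, at -0.11 ± 0.16 (edgeR adjusted p = 0.552). The WT OC libraries, 4.85 to 6.40 CPM, and the WT OB libraries, 3.39 to 6.17 CPM, overlapped for Fcgr4. The genotype effect in OB differed from that in OC for all 6 genes, from -4.21 ± 0.31 for Fcrls to -0.35 ± 0.15 for Fcgrt (edgeR adjusted p = 1.26e-13 and 0.0424; 55.2% of genes tested passed and 27.4% in that direction). The call for Fcgrt was lost without any 1 of 7 libraries, when length and GC content were offset (-0.15, adjusted p = 0.396) and on the TPM scale, where the difference was 0.05.

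The genotype effect in OB also differed from that in BMM for 5 genes, where 45.9% of genes tested passed. It was less negative in OB for Fcgr2b by 1.81 ± 0.13 on the log2 scale (edgeR adjusted p = 2.33e-14), for Fcgr1 by 0.71 ± 0.22, for Fcgrt by 0.59 ± 0.15 and for Fcgr3 by 0.48 ± 0.15 (21.6% of genes tested passed in that direction). For Fcgr4 it was more negative, at -0.997 ± 0.23 (edgeR adjusted p = 0.000497; 24.3% of genes). For Fcrls the difference of 0.34 ± 0.29 did not pass (edgeR adjusted p = 0.351).

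The balance of activating to inhibitory receptor RNA was taken per library as the summed TPM of Fcgr1, Fcgr3 and Fcgr4 over that of Fcgr2b, as a description with no test. It ran from 3.98 to 4.43 in WT BMM (4.18 ± 0.171, SD, n = 6) and from 8.99 to 12.1 in null BMM (10.6 ± 1.03). It was higher in every null library, by 1.34 on the log2 scale. Of the activating receptors Fcgr3 and Fcgr1 fell in null BMM and Fcgr4 did not pass, while Fcgr2b fell by more. Fcgr3 gave nearly all of the sum, and Fcgr3 alone over Fcgr2b was 4.11 ± 0.171 in WT BMM and 10.4 ± 1.00 in null BMM.

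With RANK-L the ratio was 7.15 ± 0.226 in WT OC (6.90 to 7.47) and 8.84 ± 0.737 in null RANK-L cultures (7.98 to 9.77). The genotypes did not overlap, but their difference, 0.30 on the log2 scale, was far smaller than in BMM. In WT cells the ratio was thus 0.77 higher on the log2 scale with RANK-L than without it, with no overlap. In null cells it was 0.27 lower on that scale, with overlap. The lowest ratios were in the osteoblast cultures, 2.32 ± 0.0889 in WT OB (2.19 to 2.45) and 2.60 ± 0.386 in null OB (2.13 to 3.20), which overlapped. The RNA of activating receptors thus exceeded that of Fcgr2b in all 36 libraries.

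**Figure D3:**
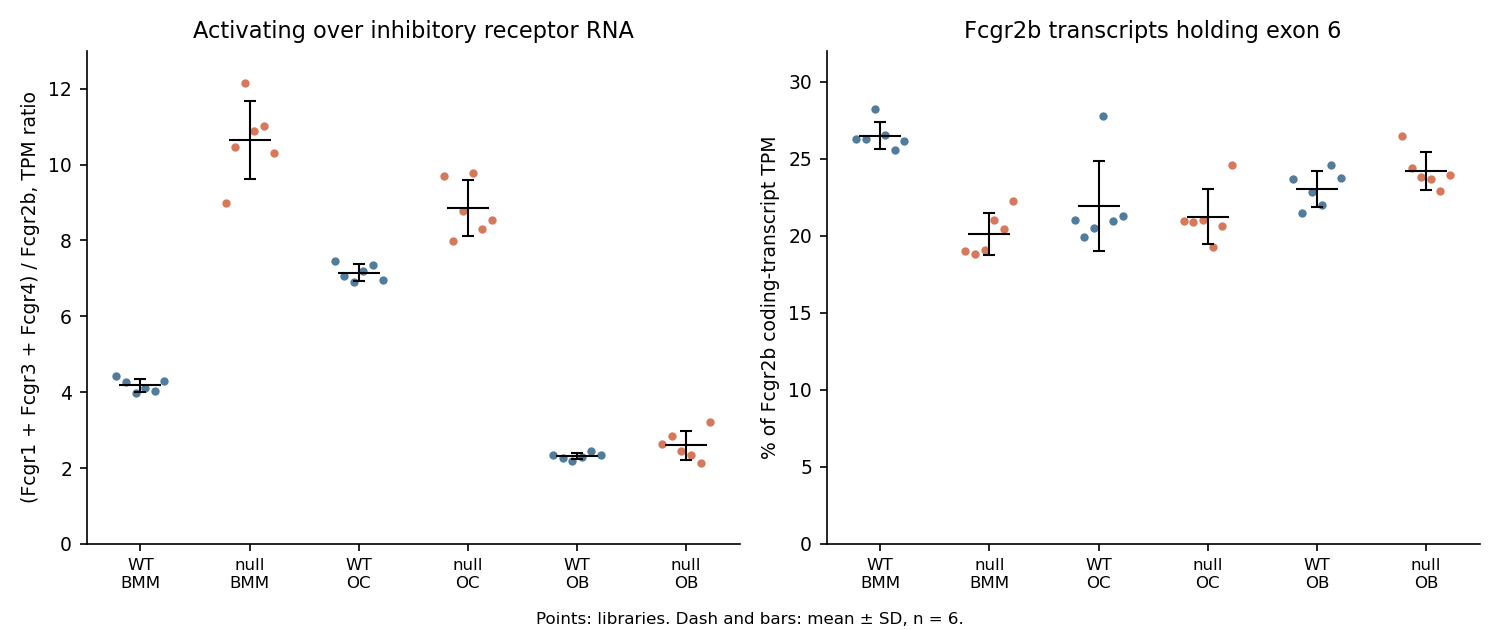
Left, summed TPM of Fcgr1, Fcgr3 and Fcgr4 over the TPM of Fcgr2b in each library; the null BMM libraries, 8.99 to 12.1, are all above the WT BMM libraries, 3.98 to 4.43. Right, share of the TPM of coding Fcgr2b transcripts that comes from transcripts with exon 6, in percent; null BMM, 18.8 to 22.2%, is below WT BMM, 25.6 to 28.2% (blue, WT; orange, null; dash and bars, mean ± SD, n = 6).

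Fcgr2b is made in forms that differ in the cytoplasmic tail. The long form, known mainly from B cells, holds an extra exon that keeps the receptor out of endocytic pits, and the form without it, known mainly from macrophages, is taken up with its ligand. That exon, the sixth of the long transcripts, has 141 bases at chr1:170963325-170963465 (GRCm38, minus strand) and is shown because the 2 forms are told apart by it.
Fcgr2b exon 6: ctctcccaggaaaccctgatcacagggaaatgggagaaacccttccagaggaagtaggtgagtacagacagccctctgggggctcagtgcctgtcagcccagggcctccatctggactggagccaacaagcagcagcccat
The sequence is given whole, with no base singled out. Transcripts with it (Fcgr2b-201 and Fcgr2b-204) gave 25.6 to 28.2% of the coding Fcgr2b TPM in WT BMM (26.5 ± 0.899%, SD, n = 6) and 18.8 to 22.2% in null BMM (20.1 ± 1.38%). The groups did not overlap, and the difference of -6.40 percentage points had an exact two-sided permutation p of 0.00216, the smallest 6 against 6 libraries can give, or 0.00649 after Benjamini-Hochberg adjustment over 3 tests. This test was chosen after seeing the data.

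The fall in share lay in 1 transcript. Fcgr2b-201, which also has a longer last exon, went from 21.9 ± 0.73% of all Fcgr2b TPM in WT BMM to 14.6 ± 1.31% in null BMM. Fcgr2b-204, which has exon 6 but not that last exon, stood at 4.15 ± 0.24% and 4.81 ± 1.44%, so exon 6 and the longer end of Fcgr2b-201 cannot be told apart in this share. Fcgr2b-202, the main form without exon 6, held 71.8 ± 0.91% in WT BMM and 76.4 ± 1.39% in null BMM. Of the stretches of 31 bases in Fcgr2b-201, 15.2% also occur in other genes, among them Cplx2 and Ntrk3 besides Fcgr3. The level of this transcript is therefore somewhat uncertain too. In OC the exon 6 share was 21.9 ± 2.92% in WT and 21.2 ± 1.77% in null (exact permutation p = 0.634). In OB it was 23.0 ± 1.16% in WT and 24.2 ± 1.21% in null (exact permutation p = 0.117). The short form was thus the main one in all 6 groups.

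Fcer1g, the gamma chain, had 4747 ± 204 TPM in WT BMM, more than any of the 6 receptor genes. It fell by 0.36 ± 0.09 on the log2 scale in null BMM (edgeR adjusted p = 0.00386) and by 0.84 ± 0.08 in null OB (edgeR adjusted p = 6.20e-06). It rose by 0.95 ± 0.07 in null RANK-L cultures (edgeR adjusted p = 3.85e-09). B2m, the partner of Fcgrt, did not pass in BMM (0.03 ± 0.13, edgeR adjusted p = 0.844). It rose by 0.54 ± 0.10 in null RANK-L cultures (edgeR adjusted p = 0.000138) and fell by 0.75 ± 0.17 in null OB (edgeR adjusted p = 0.00440), a call lost when length and GC content were offset (adjusted p = 0.112). Cd247, the zeta chain of natural killer cells, was too low to be tested in any of the 3 comparisons.

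Genes that carry the ITAM signal were mixed in BMM. Of 19 genes in this list 5 rose and 9 fell in null BMM, with a median log2 fold change of -0.16. Those 14 are to be read against the 52.3% of all genes tested that passed there, and the 9 against the 25.4% that fell. Syk, the kinase that docks on ITAMs, rose by 0.58 ± 0.11 (edgeR adjusted p = 0.000353), while Lyn, a Src-family kinase that phosphorylates both ITAMs and ITIMs, fell by 0.44 ± 0.05 (edgeR adjusted p = 3.18e-06). Another Src-family kinase, Fgr, stood at 3.66 ± 0.785 CPM in WT BMM, against 86.4 ± 10.3 CPM in null BMM, a rise of 4.57 ± 0.13 (edgeR adjusted p = 2.83e-13). Cbl, a ubiquitin ligase that ends Syk signals, fell by 0.93 ± 0.09 (edgeR adjusted p = 3.42e-07).

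In null RANK-L cultures 10 of the 19 ITAM genes rose and 5 fell (65.6% of genes tested passed), with a median log2 fold change of 0.29. Syk rose by 0.70 ± 0.07 (edgeR adjusted p = 2.90e-07) and Lyn by 0.63 ± 0.06 (edgeR adjusted p = 2.94e-08). Src itself, which osteoclasts need for their ruffled border, fell by 3.73 ± 0.10, from 114.8 ± 4.1997 CPM in WT OC to 8.95 ± 1.70 CPM (edgeR adjusted p = 1.01e-14). In OB 2 rose and 6 fell (32.5% of genes tested passed), with a median of -0.19. There Src rose by 0.64 ± 0.15 (edgeR adjusted p = 0.00539), and Syk (-0.06 ± 0.12, edgeR adjusted p = 0.768) and Lyn (-0.21 ± 0.08, edgeR adjusted p = 0.0578) did not pass. The call for Src was lost with an offset for transcript length (adjusted p = 0.112). On log2(TPM + 1) the list had 3 higher and 1 lower gene in OB, with a median of 0.0063, and 8 higher and 6 lower in OC, with a median of 0.05.

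The ITIM side is the one through which Fcgr2b acts. Of 9 genes 2 rose and 2 fell in null BMM (median log2 fold change -0.09), 5 rose and 2 fell in null RANK-L cultures (0.16), and 2 rose and 1 fell in null OB (0.17). Over all genes tested 52.3, 65.6 and 32.5% passed in these comparisons. On log2(TPM + 1) the medians were -0.21, -0.04 and 0.36. Inpp5d, the phosphatase that Fcgr2b recruits, fell by 0.47 ± 0.06 in null BMM (edgeR adjusted p = 1.40e-05) and rose by 0.41 ± 0.07 in null RANK-L cultures (edgeR adjusted p = 9.61e-05), the latter lost on log2(TPM + 1) (limma adjusted p = 0.0771). In null OB it fell by 0.22 ± 0.08 (edgeR adjusted p = 0.0382), a call lost in most other settings, with adjusted p up to 0.937. Inpp5d thus followed the direction of Fcgr2b in BMM and OC, by less.

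Ptpn6, the tyrosine phosphatase SHP-1, rose by 0.48 ± 0.05 in null BMM (edgeR adjusted p = 1.38e-06), but passed neither in OC (0.06 ± 0.05, edgeR adjusted p = 0.247) nor in OB (-0.06 ± 0.08, edgeR adjusted p = 0.602). Cblb, a ubiquitin ligase that restrains ITAM kinases, fell by 1.44 ± 0.16 in null BMM (edgeR adjusted p = 1.78e-06) and by 1.74 ± 0.12 in null RANK-L cultures (edgeR adjusted p = 2.26e-09). The adaptor Dok3 rose by 0.96 ± 0.07 in null BMM (edgeR adjusted p = 1.04e-08). Csk, which switches off Src-family kinases, rose by 0.55 ± 0.08 in null RANK-L cultures (edgeR adjusted p = 7.09e-06). Ptpn11, the phosphatase SHP-2, rose by 0.34 ± 0.06 in null OB (edgeR adjusted p = 0.00101), a call lost when length and GC content were offset (0.07, adjusted p = 0.535).

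Of 14 other inhibitory receptors of immune cells 6 rose and 5 fell in null BMM, with a median log2 fold change of 0.12 (-0.03 on log2(TPM + 1)), where 52.3% of genes tested passed. Siglece, a sialic acid receptor, rose from 15.3 ± 2.56 to 95.5 ± 11.6 CPM (log2 fold change 2.65 ± 0.11, edgeR adjusted p = 1.47e-11). Cd300lf, a lipid receptor, fell from 112 ± 20.2 to 40.6 ± 6.03 CPM (-1.45 ± 0.12, edgeR adjusted p = 6.54e-08). In null RANK-L cultures 12 of the 14 rose, where 32.4% of genes tested did, and 1 fell, with a median of 1.08. Pilra rose by 2.77 ± 0.05 (edgeR adjusted p = 1.40e-16), and the lectin Clec4a2 was the gene that passed downward, at -0.995 ± 0.09 (edgeR adjusted p = 3.42e-08). In null OB 10 fell, where 16.9% of genes tested did, and the other 4 did not pass (median -0.42), and Cd300a fell by 0.61 ± 0.07 (edgeR adjusted p = 4.63e-05).

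**Figure D4:**
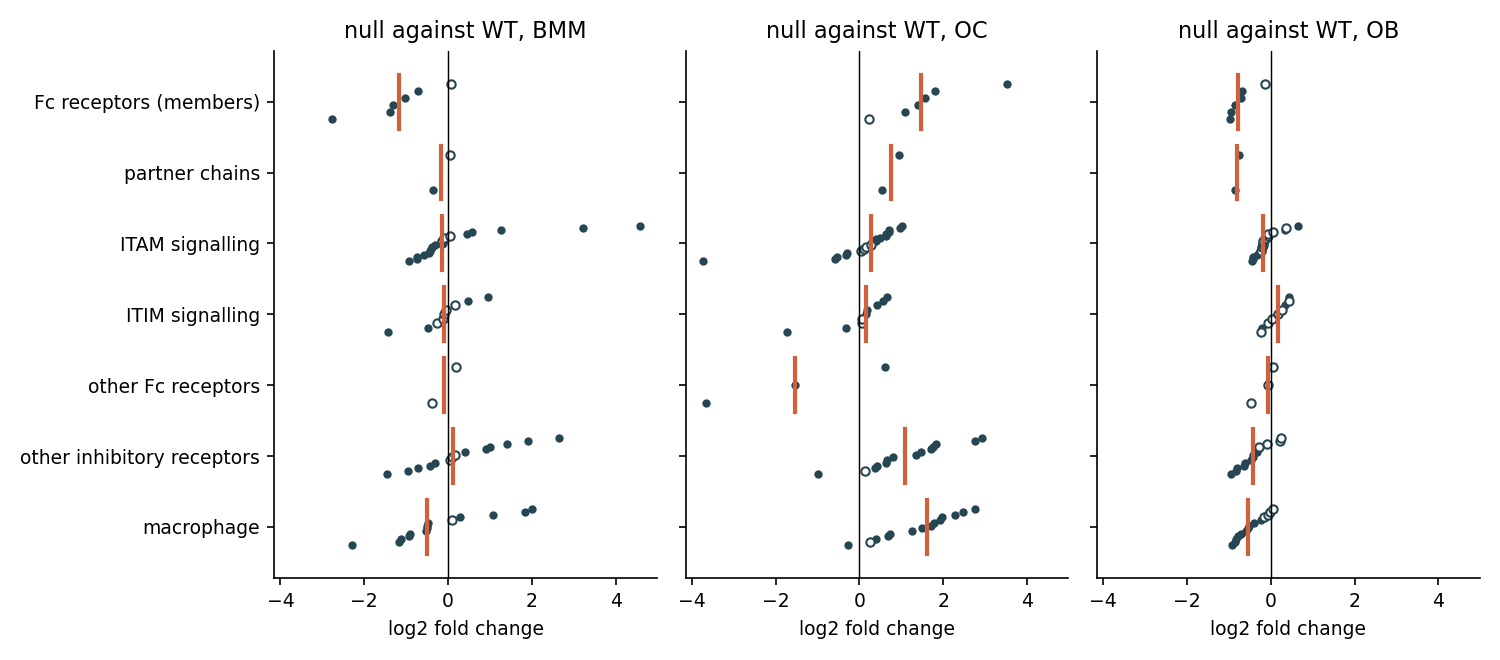
Log2 fold change, null against WT, of every tested gene of 7 lists in BMM, OC and OB (filled, adjusted p under 0.05; open, not passed; red line, median of the list). The Fc receptor genes have medians of -1.17, 1.48 and -0.78, and the 14 other inhibitory receptors 0.12, 1.08 and -0.42.

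Of 12 receptors for other antibody classes and rarer relatives of the family, 2 passed the filter on low counts in BMM and 3 in OC and in OB. With edgeR none of those tested passed in BMM or OB (1 of 2 and 0 of 3 had an unadjusted p under 0.05), and in OC 1 rose and 2 fell. In BMM other settings called up to 1 higher and 3 lower (1 and 3 with no filter, 0 and 1 with limma-voom), and in OB none did. The genes that passed there were named after their values were seen. Fcrl1, a relative known from B cells, had 23.0 ± 0.744 CPM in WT OC, against 8.19 ± 0.872 CPM in null RANK-L cultures, and fell by 1.54 ± 0.09 on the log2 scale (edgeR adjusted p = 1.56e-10). It thus went against the direction of the 5 receptors that rose there. Fcrlb, a neighbour of Fcgr2b, had 1.57 ± 0.603 and 0.132 ± 0.191 CPM, and fell by 3.67 ± 0.61 (edgeR adjusted p = 5.64e-05), where 0 to 6 counts per null library limit the size of that fold. Trim21, the cytosolic antibody receptor, had 0.961 ± 0.211 and 1.52 ± 0.352 CPM, a rise of 0.62 ± 0.25 (edgeR adjusted p = 0.0376) that was lost with the replicate block and on the TPM scale. Fcer1a, the IgE receptor chain of mast cells, and Fcmr, the IgM receptor, had 0 counts in all 36 libraries, which allows up to 3 counts in each.

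The genes most like each receptor across the 36 libraries were ranked by the root mean square difference of log2 CPM around each gene's mean, over 12636 genes. For Fcgr3 they were the phagocytic receptor gene Mertk (0.27), the complement gene C1qa (0.28) and Rab3il1 (0.28), where the median gene differed by 1.14. For Fcgr2b they were Gas6, the ligand of Mertk (0.36), Gpr160 (0.44) and the ectonucleotidase gene Entpd1 (0.47), with a median of 1.39. For Fcgr1 they were Smagp (0.36), Gpr65 (0.37) and C1qa (0.38), with a median of 1.17. For Fcgr4 they were the leukocyte surface genes Ly9 (0.30) and Cd53 (0.30) and 5430427O19Rik (0.30), with a median of 1.08.

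Fcrls had no close match: the nearest, Gm1673 (0.79), Apoe (0.81) and Ggt5 (0.88), differed from it more than the nearest of any other member did, with a median gene at 2.13. For Fcgrt the nearest were the clock gene Per3 (0.24), Tceal9 (0.27) and Zfyve21 (0.30), with a median of 1.10. Among the members themselves Fcgr1 and Fcgr3 were the most alike (0.48) and Fcgr4 and Fcrls the least (2.26). These likenesses are descriptions over libraries that share genotype and culture.

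Start regions were read from RefSeq (GRCm38.p6), where all 6 members matched, and those of the activating receptors are printed. The activating receptors moved together in OC and OB, but Fcgr2b and Fcrls moved in the same directions there. A window from 250 bases before to 50 after each start was searched on both strands for GAGGAA (the core bound by PU.1, a master factor of macrophages), TTCNNNGAA (the STAT site) and TGANTCA (the AP-1 site, used in osteoclast formation). The 120 bases before the start are printed 5′ to 3′ on the gene's strand, with matches in capitals, and TTCCTC is GAGGAA read on the other strand. They lie at chr3:96293970-96294089 (minus), chr1:171059404-171059523 (minus) and chr1:171018806-171018925 (plus).
Fcgr1 start region: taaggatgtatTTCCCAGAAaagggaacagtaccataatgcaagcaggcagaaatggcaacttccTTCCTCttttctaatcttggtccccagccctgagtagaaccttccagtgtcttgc
Fcgr3 start region: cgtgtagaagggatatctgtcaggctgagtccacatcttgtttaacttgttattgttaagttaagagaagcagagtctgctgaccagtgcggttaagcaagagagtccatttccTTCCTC
Fcgr4 start region: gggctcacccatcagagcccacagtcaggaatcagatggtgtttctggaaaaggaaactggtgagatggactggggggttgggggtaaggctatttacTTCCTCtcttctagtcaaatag
GAGGAA was found in the windows of Fcgr1, Fcgr3, Fcgr4 and Fcrls, and in 28.3% of 32851 promoters. TTCNNNGAA was found in that of Fcgr1, whose induction by interferon gamma is well known, and in 8.30% of promoters. TGANTCA was found in none of the 6, and in 7.81% of promoters. The windows of Fcgr2b and Fcgrt held none of the motifs searched. Whether these motifs bear on the levels was not tested. Windows without a match only lack these letters.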

How the data were processed

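RNA was sequenced from 36 mouse cultures, 6 per genotype and culture. The deposited files give, per Ensembl transcript, estimated counts, TPM and an effective length in bases (a deposited value of its own scale, used for length offsets). Per the submitters' processing notes the tools named were kallisto and DESeq2, with no version or role. Those notes name a human build although the transcript identifiers are mouse, so genes were matched to GENCODE M21 (GRCm38), which held 97.54% of the 88198 transcripts. Unmatched transcripts (0.629 to 0.974% of counts) were left out. No unused sample columns were present.

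The authors' estimated counts were summed per gene, rounded to whole numbers and tested with edgeR 4.0.16 (R 4.3.3; TMM, filterByExpr, quasi-likelihood F test, Benjamini-Hochberg over all genes tested), with genotype fitted within each culture, RANK-L comparisons on the 4 marrow groups and comparisons with OB on all 36 libraries. The authors' TPM values were summed per gene for levels between genes and for the ratio. CPM were TMM-scaled. The calls were tried on simulated data with the same spread for all genes and 100 genes changed at each of 2 sizes. Many more genes passed in the real data, so the simulation does not give the error rate of the calls reported here.

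The 6 genes, and the lists of partner chains, signalling genes, other receptors and cell markers, were chosen with earlier results of these data known. Beyond the 6 genes, the text names Fcer1g, B2m, Syk, Lyn, Inpp5d and Ptpn6, and in each list of at least 5 tested genes the higher and the lower gene with the smallest p and a mean of at least 1 CPM; some items that this rule names are not reported here. Alternatives were RLE scaling, DESeq2 1.42.0, limma 3.58.1 (voom weights, and trend on log2 TPM with a pseudocount of 1 or 0.1), other filters, offsets for length and GC content, a replicate block, a fit of all libraries, and leaving out each library. Whether replicate numbers pair the libraries is not given in the labels, and the main fits did not use them.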

Additional observations from a re-analysis of the deposited data

Results flagged for a closer look

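In the 42 groups of 6 libraries examined for a library far from the others, 1 was found, where chance gives about 1 in 20 groups. The exon 6 share was not among these 42 groups. Fcgr4 in null BMM replicate 3 stood at 18.2 CPM, and the other 5 libraries lay between 13.3 and 14.6 CPM. Without it the genotype difference of Fcgr4 in BMM was -0.01 on the log2 scale.

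The other values were found because the genotype effect differed between cultures in a test of the difference itself (edgeR quasi-likelihood, on the log2 scale). Between the response to RANK-L in null and in WT cells the difference was 3.20 for Fcgr1, 3.86 for Fcgr2b, 2.72 for Fcgr3, 1.51 for Fcgr4, 4.57 for Fcrls and 0.95 for Fcgrt. Between OB and OC the genotype effect differed by -2.47 for Fcgr1, -2.04 for Fcgr2b, -2.23 for Fcgr3, -2.50 for Fcgr4, -4.21 for Fcrls and -0.35 for Fcgrt. Between OB and BMM it differed by 0.71 for Fcgr1, 1.81 for Fcgr2b, 0.48 for Fcgr3, -0.997 for Fcgr4 and 0.59 for Fcgrt. These 3 sets share libraries with each other and with the comparisons reported above.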

How the results depend on the processing

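Over 106 settings other than leaving out a library and 156 that left one out, the count of Fc receptor genes called ran from 5 to 6 for genotype in OC, OB against BMM in WT and the genotype effect in OB against OC, and from 2 to 3 for RANK-L in null cells. It did not move in the other 6 comparisons. Of single values for these genes, 616 kept direction and call in the first kind of setting, 10 reversed, 4 gained and 6 lost the call. The same was so for 916, 4, 2 and 14 values when one library was left out. The cause of these changes was not tested.

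The replicate block changed no call for the 6 genes and gave 5645 genes past the threshold in BMM (6241 without it), 7556 in OC (7946), 4085 in OB (4420) and 1243 for RANK-L in null cells (1628). Same-numbered libraries hardly deviated together: 1 of 54 correlations of their deviations from the group mean was over 0.1. Of 6 WT BMM libraries, 3 correlated best with the WT OC library of their own number. The labels do not say whether the numbers pair libraries, and low correlations cannot settle it. Genes past the threshold in OB were 2289 with an offset for length and GC content. Leaving out one library gave 810 to 2143 genes for RANK-L in null cells, where all libraries gave 1628 (840 without null BMM replicate 2, 810 without 3, 948 without 4, 1046 without null OC replicate 3).

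Reversed values, null against WT on the log2 scale, were as follows. For Fcgr4 in BMM they were -0.041 (length and GC offset), -0.046 and -0.0465 (TPM with either pseudocount), with -0.059 to 0.17 when one library was left out (-0.059 without WT BMM replicate 3, -0.014 without null BMM replicate 3). Fcgrt on TPM gave -0.0026 and -0.0032 in OC, and 0.0468 and 0.0469 in OB. B2m in BMM gave -0.21 (length and GC offset), -0.12 and -0.12 (TPM), and -0.076 to 0.10 leaving one library out (below 0 without WT BMM replicate 3 or 4 or null BMM replicate 3). Ptpn6 gave -0.078 (length and GC offset), -0.11 and -0.11 (TPM) in OC, and 0.013 (length offset), 0.19 and 0.19 (TPM) in OB. In OB, TPM gave 0.11 and 0.12 for Syk (0.021 without null OB replicate 2, -0.12 at the lowest), 0.00035 and 0.00027 for Lyn, and 0.0128 and 0.0133 for Inpp5d. For RANK-L in null cells Fcgr2b was 0.0024 with limma-voom and -0.087 to 0.020 leaving one library out, the highest without null OC replicate 3. Fcgr4 in OB against OC was -0.14 to 0.0014 leaving one out, the highest without WT OB replicate 6. The genotype effect of Fcgrt in OB against OC was 0.049 and 0.0501 on TPM.

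For the log2 ratio of activating to inhibitory receptors, null minus WT in BMM was 1.47 on CPM and 2.74 for Fcgr4 alone, with 1.30 to 1.39 when one library was left out. In OC it was 0.70 for Fcgr1 alone and 0.46 for Fcgr4 alone (0.27 to 0.33 leaving one out), and in OB 0.09 to 0.21 leaving one out. OC minus BMM in WT was 0.86 on CPM, 0.38 for Fcgr1 alone and 2.50 for Fcgr4 alone, and in null it was 0.22 for Fcgr4 alone. The exon 6 share, null minus WT, ran from -6.83 to -6.05 points in BMM, from -1.35 to 0.50 in OC (0.50 without WT OC replicate 4) and from 0.70 to 1.46 in OB (1.46 without WT OB replicate 5, exact permutation p = 0.039) when one library was left out.

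On log2(TPM + 1) the share of calls that were higher moved from 50.2 to 61.0% for RANK-L in WT cells, from 52.8 to 64.5% in null cells, from 47.1 to 77.2% for the genotype effect in OB against BMM and from 50.4 to 75.7% in OB against OC, where the median of all genes was 0.24 and 0.30. Counts of 40 to 134 per library limit the precision of Fcgr4 in OB.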
